A study of Gossypium hirsutum with 3 samples.

Results

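Chromosomes A02, A03, D02 and D03 of upland cotton were described gene by gene from leaf RNA-seq. Their genes were picked by identifier, those beginning with Gh_A02, Gh_A03, Gh_D02 or Gh_D03, and were ordered by the number at the end of the identifier. This gave 8319 of the 70478 genes listed, with 1824 on A02, 2187 on A03, 2448 on D02 and 1860 on D03. The samples were 3 libraries of leaves from 20-day-old greenhouse plants of Gossypium hirsutum TM-1, the cultivar of the reference genome. There was no treatment, no second genotype and no second tissue, so every comparison is between chromosomes, stretches or gene copies within the same libraries. The labels do not say whether the libraries came from separate plants, and p-values therefore measure only the spread between libraries, which may be technical. Expression is given as FPKM (fragments per kilobase of exon, scaled to the mapped fragments of the library), and a gene is called expressed at FPKM of 1 or more, the definition used in the study.

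Upland cotton is an allotetraploid that arose when an A-genome and a D-genome species hybridised, and its nucleus holds the chromosomes of both as subgenomes. Most genes thus have a counterpart in the other subgenome, the homeolog, usually on the chromosome of the same number. Chromosomes A02 and A03 are an exception, since they exchanged arms after the subgenomes diverged, so that A02 carries a segment matching D02 and a segment matching D03, and A03 carries the remainder of each.

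The change of partner was visible along A02 in the listed homeologs. Of 889 A02 genes with a homeolog in the study's lists, 574 had it on D02, 303 on D03 and 12 on another chromosome. Every listed gene up to Gh_A02G0933 paired with D02 and every one from Gh_A02G0934 paired with D03, apart from 3 exceptions and the 12 pairs with other chromosomes. Of the neighbours at this point, Gh_A02G0933 had FPKM of 6.27, 6.10 and 5.95 in libraries 1, 2 and 3, and its homeolog Gh_D02G1043 had 3.23, 2.95 and 2.87. Gh_A02G0934 had 29.0, 26.4 and 23.9, and its homeolog Gh_D03G0831 had 17.4, 18.6 and 15.0. All 4 genes were expressed in every library, and in both pairs the A copy was above the D copy without overlap between libraries, as was the case in either direction for 62.4% of all 1999 pairs tested.

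Gene order was kept against D02 and broken into blocks against D03. From 1 listed A02 gene to the next, the D02 number rose in 556 of 573 steps (97.0%), whereas the D03 number rose in 131 of 302 (43.4%). From Gh_A02G0934 to Gh_A02G1047 the partners ran downwards from Gh_D03G0831 to Gh_D03G0677. From Gh_A02G1223 to Gh_A02G1360 they ran upwards from Gh_D03G0361 to Gh_D03G0498, and from Gh_A02G1371 to Gh_A02G1472 downwards again to Gh_D03G0240. A further 17 pairs between Gh_A02G1074 and Gh_A02G1110 matched D03 numbers from 1725 to 1764, near the end of the D03 numbering. Of the 16 steps between these pairs, 6 rose. Late numbers can hold genes of scaffolds assigned to a chromosome, and where such genes begin on D03 was not found. The place of these 17 partners on D03 is therefore not known. Listed pairs ended at Gh_A02G1472. Homeologs of the later A02 genes and of A03 genes were not analysed here.

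A03 had the largest expressed share of all 26 chromosomes, and the other 3 chromosomes lay near the middle. The share on A03 was 65.1%, 65.3% and 63.9% in libraries 1, 2 and 3 (64.8% ± 0.79, SD, n = 3). It was 61.5%, 61.6% and 60.1% on D03 (61.1% ± 0.87), 59.3%, 59.5% and 58.2% on A02 (59.0% ± 0.70), and 59.1%, 59.7% and 57.9% on D02 (58.9% ± 0.94). In that order they ranked 1, 9, 16 and 18 of 26. A02 and D02 overlapped between libraries, D03 lay above both, and A03 lay above D03 in every library. Library 3 was lowest on all 4 chromosomes.

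**Figure D1:**
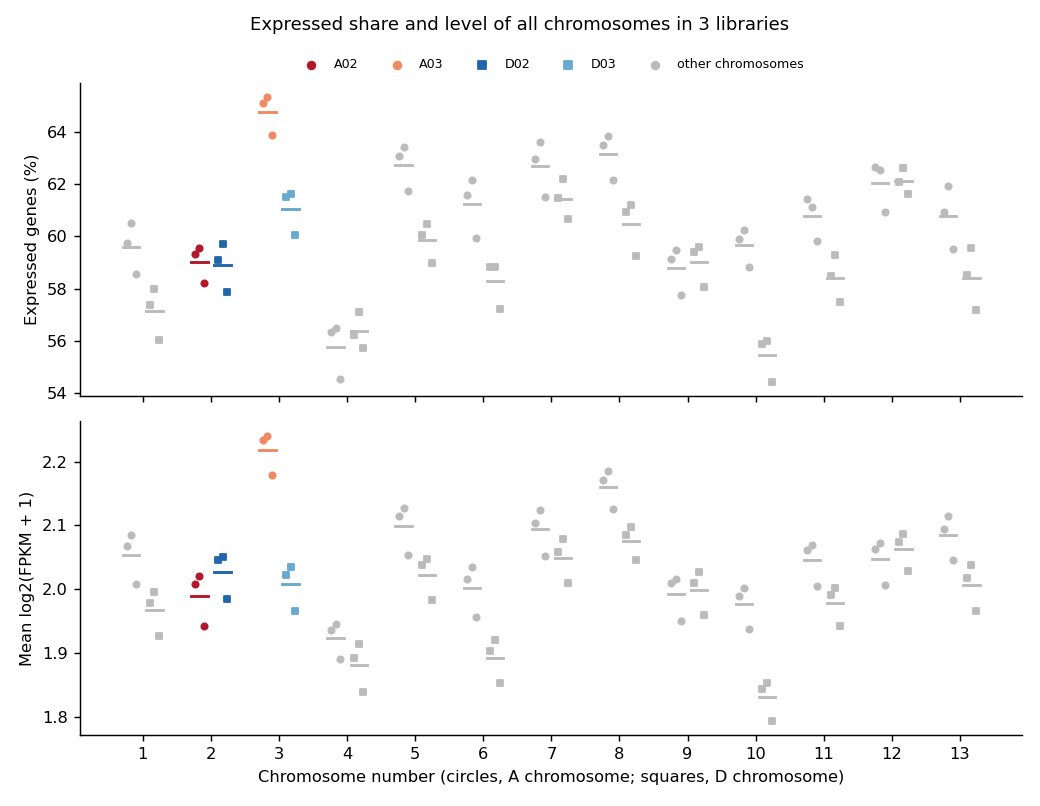
Percentage of genes with FPKM of 1 or more (top) and mean log2(FPKM + 1) (bottom) for the 26 chromosomes; points are the 3 libraries, bars their mean, circles A and squares D chromosomes. A03 ranks first in both panels, whereas A02, D02 and D03 lie among the other chromosomes.

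A03 ranked first in level as in share, whereas D02 ranked higher in level than in share. The mean of log2(FPKM + 1) over all genes was 2.22 ± 0.03 on A03, 2.03 ± 0.04 on D02, 2.01 ± 0.04 on D03 and 1.99 ± 0.04 on A02 (SD, n = 3). These levels ranked 1, 12, 14 and 19 of 26. D02 thus had the smallest mean expressed share of the 4 and the second highest level, but both ranks rested on small differences. A02 minus D02 was 0.12 ± 0.27 points in share, and D03 minus D02 was -0.019 ± 0.004 in level (SD, n = 3). At FPKM of 10 or more there were 593 genes on D02 (24.2%), 568 on A03 (26.0%), 403 on D03 (21.7%) and 400 on A02 (21.9%). Genes listed at 0 in every library were fewest on A03 (285, 13.0%) and made up 16.7% of A02, 16.4% of D02 and 17.6% of D03. Of all 8319 genes, 423 (5.08%) crossed FPKM of 1 between libraries.

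Taken as sums, the A chromosomes had more expressed genes than the D chromosomes. In A02 plus A03 62.2% of 4011 genes were expressed, against 59.8% of 4308 in D02 plus D03. The gap was 2.33, 2.16 and 2.49 percentage points in the 3 libraries (2.33 ± 0.16, SD, n = 3), larger than its spread, and the level gap was 0.10 in each library on log2(FPKM + 1). With 3 libraries an exact permutation test of A against D values cannot go below p = 0.1, and exact sign flips of the within-library gaps cannot go below p = 0.25 (both two-sided). Both gaps had these smallest values, so neither can pass a threshold of 0.05. The level gap was 0.0313 over the genes whose mean FPKM reached 1, so on this scale it was smaller among expressed genes.

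The gap came with chromosome number 03 and was not seen for 02. A03 exceeded D03 by 3.61, 3.73 and 3.82 points of expressed share (3.72 ± 0.11) and by 0.21 in level. A02 minus D02 was 0.21, -0.18 and 0.34 points of share, with a mean of 0.12 that was below its SD of 0.27, and its level difference was -0.04, negative in every library. The difference between the share gaps was 3.60 ± 0.28 points (exact sign-flip p = 0.25, the smallest possible, n = 3). Since both D chromosomes have partners on A02, these same-number contrasts do not compare homeologous genes. Across the other 11 chromosome numbers the A minus D share gap ranged from -0.58 to 4.22 points and was above 0 in 8, so both share gaps lay within that range. The level gaps did not, since those of the other numbers ranged from -0.02 to 0.15, below the 0.21 of A03 minus D03 and above the -0.04 of A02 minus D02. The sum over those 11 numbers gave 2.04 ± 0.15 points. The difference between the 2.33 and the 2.04 was 0.28 points with an SD of 0.26, and that between the level gaps, 0.0959 and 0.0677, was 0.0282 with an SD of 0.0020 (exact sign-flip p = 0.25 for both, the smallest possible, n = 3).

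The expressed share differed more between windows than between libraries of the same window. Over the 81 full windows of 100 consecutive genes the expressed share ran from 33.0% to 78.3%, with a median of 63.0% and an SD between windows of 8.05 points. Among the other chromosomes the SD between windows was 7.30 points for A and 8.40 for D. The median SD between libraries within a window was 1.15 points. The largest was 4.04, in window 1101 to 1200 of A03, where 72, 69 and 64 genes were expressed. Libraries measure the same genes, so their SD does not say how far windows of randomly ordered genes would differ, which was not tested. Window shares of any pair of libraries correlated at r = 0.966 to 0.986 (n = 81 windows, which share the gene set and the depth of their library). A and D windows had the same median, 63.0%. Shares below 50% occurred in 2 of 39 A windows (5.13%) and 5 of 42 D windows (11.9%). On the other chromosomes they occurred in 7.27% of A and 12.9% of D windows, so both counts were near that background.

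**Figure D2:**
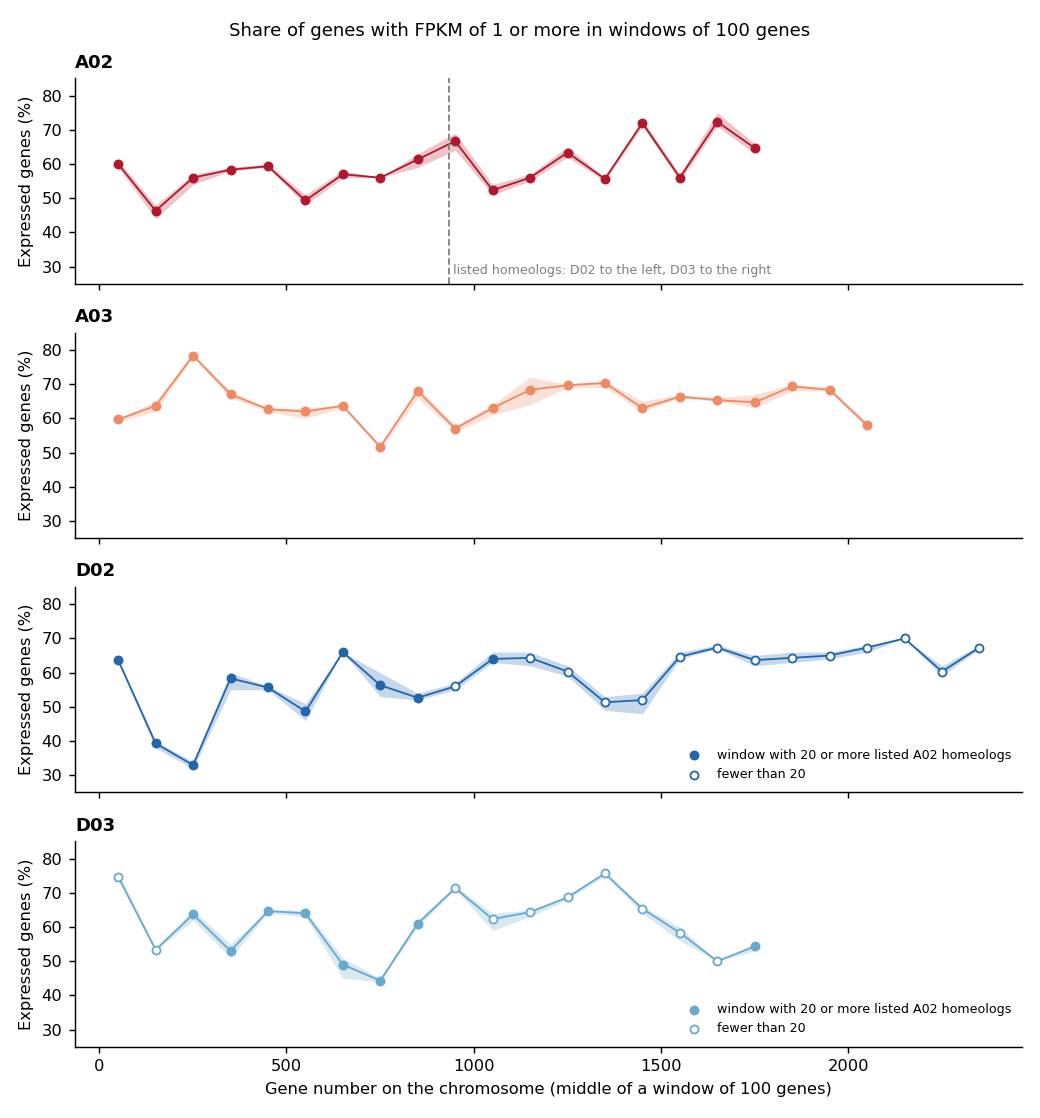
Percentage of genes with FPKM of 1 or more in full windows of 100 genes along A02, A03, D02 and D03; points are means of 3 libraries and bands run from the lowest to the highest library. Filled points on D02 and D03 hold 20 or more listed A02 homeologs. The lowest windows lie at genes 101 to 300 of D02, and the highest at genes 201 to 300 of A03.

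The lowest window was D02 201 to 300. Of its 100 genes 34, 33 and 32 were expressed in the 3 libraries, 28 were listed at 0 in every library, and the median FPKM was 0.0841. It was the second lowest full window of the genome, after a window of D05 at 27.3%. The preceding window, D02 101 to 200, had 40, 40 and 38 expressed genes. Within the lowest window the most abundant gene, Gh_D02G0243, reached 77.3, 77.9 and 82.0 FPKM, and no gene reached 100.

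The highest window was A03 201 to 300, with 79, 78 and 78 expressed genes, 5 genes listed at 0 and a median FPKM of 5.40. No other full window of the genome was higher. Its most abundant gene, Gh_A03G0280, had 164, 150 and 180 FPKM. The other extremes were A02 101 to 200 (46.3%) and A02 1601 to 1700 (72.3%), A03 701 to 800 (51.7%), D02 2101 to 2200 (70%), and D03 701 to 800 (44.3%) and D03 1301 to 1400 (75.7%). The most abundant genes of the low windows were Gh_A02G0188 (145, 138 and 148 FPKM), Gh_A03G0714 (160, 163 and 162) and Gh_D03G0718 (66.9, 68.0 and 82.9). Those of the high windows were Gh_A02G1698 (570, 558 and 541), Gh_D02G2126 (1963, 1930 and 2504) and Gh_D03G1399 (248, 234 and 309). The lowest window of each chromosome thus still held a gene above 50 FPKM.

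The stretches of D02 and D03 with many listed A02 homeologs were less often expressed than the remainder of their chromosomes. This contrast was chosen after the data had been seen. In the 10 D02 windows with 20 or more listed A02 partners the share was 53.6%, 54.6% and 53.1%, and in the other 15 windows it was 62.9%, 63.3% and 61.2%, a gap of 8.69 ± 0.61 points. In the 8 such D03 windows it was 57.5%, 57.3% and 55.5%, against 64.5%, 64.9% and 63.5% in the other 11, a gap of 7.56 ± 0.49 points. The groups of values did not overlap on either chromosome, and both exact permutation tests gave p = 0.1, the smallest possible (n = 3). Both groups were measured in the same libraries, and exact sign flips of the within-library gaps gave p = 0.25, also the smallest possible. The level gaps were 0.32 on D02 and 0.25 on D03. A few windows carried much of this. Without the 2 lowest windows of each stretch, D02 101 to 300 and D03 601 to 800, the gaps were 4.29 ± 0.81 points on D02 and 4.20 ± 0.29 on D03. The other windows are not shown to lack A02 partners, because the pairs past Gh_A02G1472 were not used. They include D02 901 to 1000, with 11 listed A02 partners and a share of 56%. Of the 889 listed pairs, 580 came from a list of expressed pairs only, as the full list ended at A02 number 418. Pairs with D03 began at Gh_A02G0934, apart from 2, so nearly all D03 partners came from the list of expressed pairs. D03 windows were thus grouped by the FPKM values whose expressed share was then compared, and D02 windows partly so. The p-values of these gaps are therefore not independent of the grouping.

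On A02 itself the stretch with listed D03 homeologs had a somewhat higher share than that with D02 homeologs, a contrast also chosen after the data had been seen. It was 60.5%, 59.9% and 59.4% in the 539 genes from Gh_A02G0934 to Gh_A02G1472 and 56.4%, 57.3% and 55.6% up to Gh_A02G0933, a gap of 3.48 ± 0.79 points (exact permutation p = 0.1, the smallest possible, n = 3). The 352 later genes, whose homeologs were not analysed, had a higher share still, at 65.3%, 64.8% and 63.4%. With these included the gap was 5.28 ± 0.76 points (exact sign-flip p = 0.25 for the within-library gaps, the smallest possible, n = 3). It was 0.24 points with FPKM of 5 as the limit of expression.

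Genes with a listed homeolog were expressed more often than genes without one. This could be asked where the full list of pairs was at hand, for the first 418 numbers of A02 and the matching start of D02, and was also chosen after the data had been seen. On A02 309 genes had a listed homeolog, of which 64.1%, 64.7% and 62.8% were expressed. The 109 without one gave 33.9%, 35.8% and 33.0%, a gap of 29.6 ± 0.61 points. On D02 the 297 genes listed as homeologs of A02 genes gave 61.3%, 62.0% and 60.3%, and the 173 not listed gave 32.4%, 31.8% and 29.5%, a gap of 29.95 ± 0.96 points. In both chromosomes the values lay far apart, and the exact permutation test gave p = 0.1, the smallest possible (n = 3). Exact sign flips of the within-library gaps gave p = 0.25 on both, also the smallest possible. D02 genes not listed with A02 may have a partner elsewhere, and reads shared between near-identical copies could not be traced in FPKM values.

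The low windows near the start of D02 held many genes without a listed homeolog, and in the lowest of them the listed genes were also less often expressed than elsewhere. In D02 201 to 300, 50 genes were listed and 46%, 44% and 42% of them were expressed, against 22% of the 50 others in every library. In D02 101 to 200 the shares were 58.2%, 58.2% and 54.5% of 55 listed genes, and 17.8% of 45 others in every library. In D02 1 to 100 the 39 unlisted genes were expressed at 59.0%, 56.4% and 56.4%, close to the 67.2%, 68.9% and 67.2% of the 61 listed. On A02 the smallest share of unlisted genes, 20%, 20% and 16% of 25, was also in window 101 to 200.

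**Figure D3:**
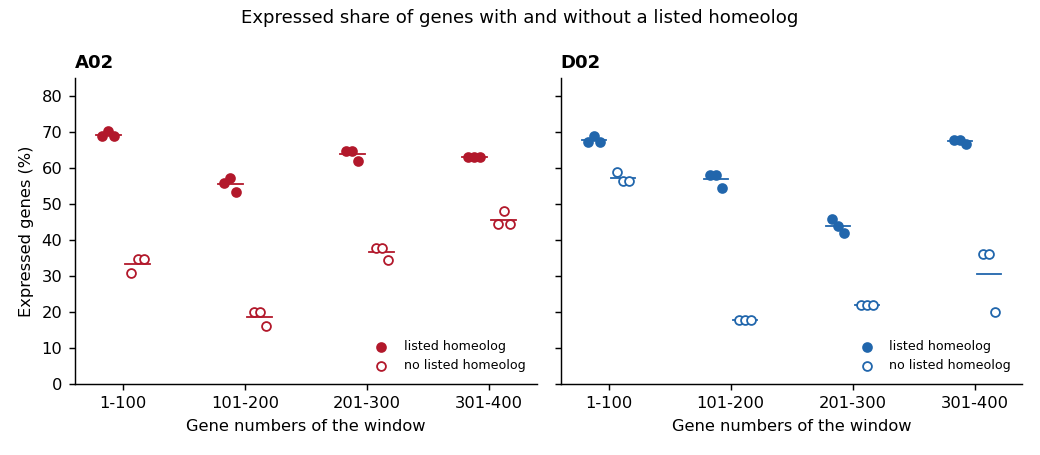
Percentage of genes with FPKM of 1 or more among genes with (filled) and without (open) a listed homeolog, in the first 4 windows of A02 and D02; points are the 3 libraries and bars their mean. Filled points lie above open ones in all 8 windows, and the filled points are lowest at genes 201 to 300 of D02.

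Homeologs were mostly expressed or silent together. Of the 309 pairs in the full list, 184 (59.5%) had both copies at mean FPKM of 1 or more and 105 (34.0%) had neither, with both listed at 0 in every library in 22. Only the A copy was expressed in 14 pairs and only the D copy in 6, so 6.47% differed. In A02 101 to 200 neither copy was expressed in 42.7% of 75 pairs, more than in the other 3 windows, where it was 28.4% to 35.6%.

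Silent genes, those below FPKM of 1 in every library, made up 38.9% of A02, 32.5% of A03, 38.5% of D02 and 36.6% of D03. Most stood alone or in short runs, with a median run of 1 gene. Runs of 10 or more numbered 1 on A02, 2 on A03, 4 on D02 and 2 on D03. Per 1000 genes this was 0.75 for A02 plus A03, where the other A chromosomes had 0.68, and 1.39 for D02 plus D03, where the other D chromosomes had 1.13. The contrast between 3 A and 6 D runs was not stable, since A02 plus A03 had 5 runs without library 1 and 4 without library 2 or 3, and D02 plus D03 still had 6. Shorter runs, of 5 or more, gave another order, with 12.1 per 1000 genes on A02, 9.14 on D03, 8.99 on D02 and 5.94 on A03.

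The longest run, Gh_D02G0561 to Gh_D02G0575, held 15 genes, of which 12 were listed at 0 in every library and none passed 0.194 FPKM. The genes on either side were expressed, Gh_D02G0560 at 16.9, 14.2 and 12.8 FPKM and Gh_D02G0576 at 16.3, 16.0 and 16.5. On A02 the longest run was Gh_A02G0193 to Gh_A02G0204, of 12 genes below 0.372 FPKM and 7 at 0, between Gh_A02G0192 at 30.03, 28.3 and 20.7 and Gh_A02G0205 at 8.12, 7.23 and 10.8. The genes beside a run reach FPKM of 1 in some library by definition, and not every long run had such abundant neighbours. The D02 run from Gh_D02G0275 to Gh_D02G0284 reached 0.871 FPKM and lay between genes with means of 1.68 and 2.80.

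On A03 the longest run was Gh_A03G0723 to Gh_A03G0734, with 12 genes and 8 at 0, between Gh_A03G0722 at 5.73, 3.99 and 3.44 FPKM and Gh_A03G0735 at 23.3, 23.2 and 18.8. A run of 11 genes followed at Gh_A03G0746 to Gh_A03G0756, and both lay in the lowest A03 window. On D03 the longest was Gh_D03G0746 to Gh_D03G0756, with 11 genes and 8 at 0, between Gh_D03G0745 at 3.48, 2.84 and 3.41 and Gh_D03G0757 at 15.1, 12.3 and 8.71. It too lay in the lowest window of its chromosome. D02 was crowded with runs in its low windows, with 10 genes each at Gh_D02G0193 to Gh_D02G0202, Gh_D02G0256 to Gh_D02G0265 and Gh_D02G0275 to Gh_D02G0284. The most silent stretch of 30 neighbouring D02 genes began at Gh_D02G0211 and held 25 silent genes.

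**Figure D4:**
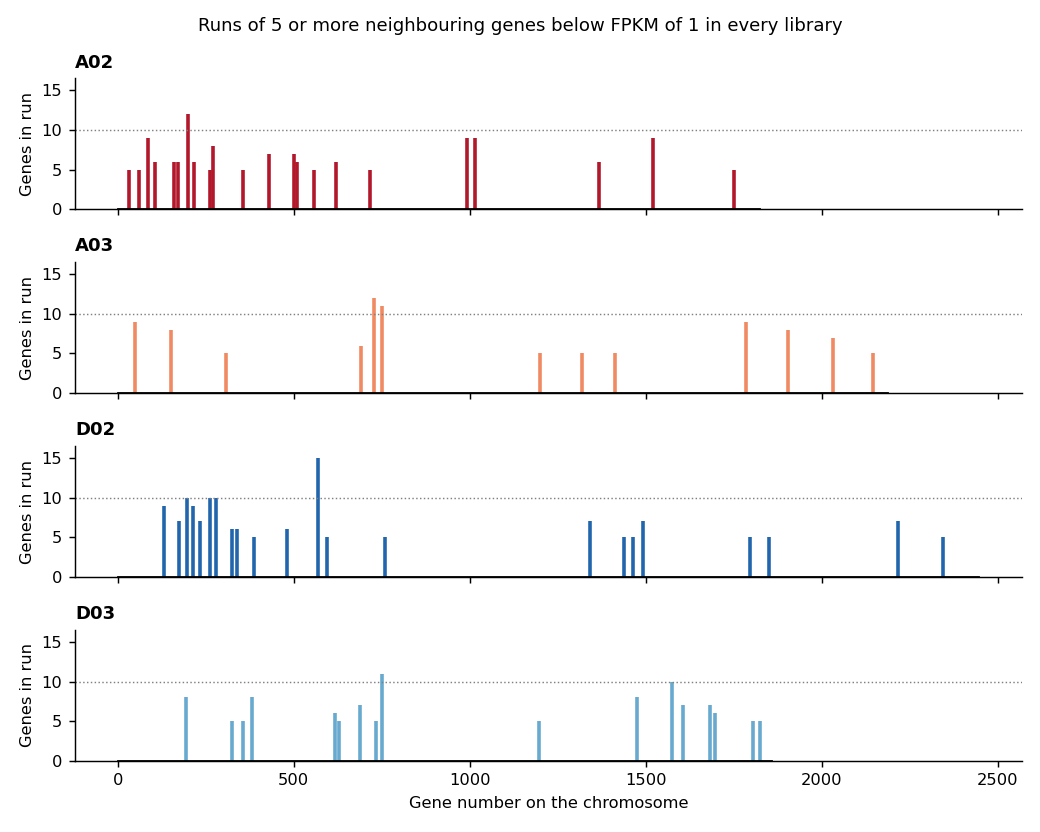
Runs of 5 or more neighbouring genes below FPKM of 1 in every library along A02, A03, D02 and D03; the height of a line is the number of genes in the run and the dotted line marks 10. The longest run, of 15 genes, is on D02, and the runs of 10 genes near gene 200 to 300 of D02 fall in its lowest windows.

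Runs of silence were shared by the homeologs where these were listed. The A02 run from Gh_A02G0193 and the D02 run from Gh_D02G0256 were each other's counterparts, and 6 pairs connected them. In 3 A02 runs of 8 or more genes all 12 listed homeologs were silent, and in 5 D02 runs all 19 were. The background was high, since 93.5% of the 108 silent A02 genes with a listed homeolog and 86.3% of the 117 silent D02 ones had a silent homeolog, so runs and single silent genes cannot be set apart here.

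At the other end, a few genes were very abundant. The 3 highest on D02 were Gh_D02G2126 (1963, 1930 and 2504 FPKM), Gh_D02G1996 (1438, 1516 and 1764) and Gh_D02G0359 (1379, 1355 and 1715). On A03 they were Gh_A03G1705 (1341, 1323 and 1588), Gh_A03G2154 (1272, 1320 and 1589) and Gh_A03G1927 (921, 949 and 1279). On A02 they were Gh_A02G0295 (1214, 1218 and 1531), Gh_A02G1268 (940, 1006 and 868) and Gh_A02G1235 (631, 618 and 748). Library 3 was highest for these 9 genes except Gh_A02G1268, where it was lowest. On D03 the highest were Gh_D03G0371 (826, 818 and 1028), Gh_D03G0370 (659, 741 and 847) and Gh_D03G1245 (541, 501 and 653). Genes of 500 FPKM or more numbered 8 on A02, 5 on A03, 8 on D02 and 8 on D03. They made up 0.32% of A02 plus A03 and 0.37% of D02 plus D03. On the other A and D chromosomes the shares were 0.27% and 0.26%.

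Several abundant A02 genes were abundant in both copies. Gh_A02G0295 and its homeolog Gh_D02G0359 had means of 1321 ± 182 and 1483 ± 201 FPKM (SD, n = 3), a log2 fold change (D over A) of 0.17 ± 0.15 (SE) that did not pass the test (limma, Benjamini-Hochberg adjusted p = 0.368). Gh_A02G0781 and Gh_D02G0830 had means of 640 ± 111 and 640 ± 76.9, apart by less than their spread. Gh_A02G1268 (938 ± 68.8) was above its homeolog Gh_D03G0408 (536 ± 31.6), with a log2 fold change of -0.81 that was past the adjusted p but short of the threshold of 1 (limma, adjusted p = 0.000599). One abundant D03 gene had a much lower partner. Gh_D03G1761 had 558, 505 and 570 FPKM and Gh_A02G1106 had 34.3, 30.4 and 39.4, a log2 fold change of 3.96 (SE 0.13, limma, adjusted p = 5.64e-07).

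Of 784 expressed A02 pairs tested, 83 were A-biased (10.6%) and 93 were D-biased (11.9%). A pair was called biased by limma at a Benjamini-Hochberg adjusted p below 0.05, over all 1999 pairs tested, and copies at least 1 apart in log2 fold change. The background over those 1999 pairs, which include the A02 pairs, was 10.8% A-biased and 13.3% D-biased. The other 1215 pairs, from A01, gave 10.9% and 14.2%. The A02 shares were near both, with the D-biased share somewhat lower. The excess of D-biased over A-biased A02 pairs was not stable, since centring each column on its median gave 90 A-biased and 88 D-biased. The pairs of both arms of A02 gave like shares. With D02 homeologs 49 of 475 were A-biased and 57 D-biased, and with D03 homeologs 30 of 301 were A-biased and 34 D-biased. The median log2 fold change was -0.0019 for D02 partners and -0.0055 for D03 partners. In windows of 100 A02 genes the counts ran from 3 to 8 A-biased and from 3 to 9 D-biased.

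**Figure D5:**
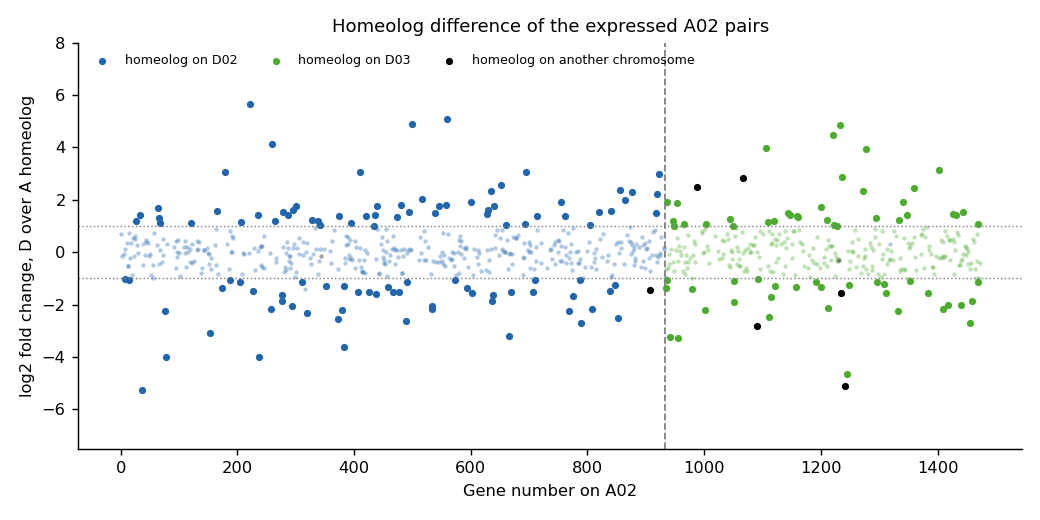
log2 fold change, D over A homeolog, of 784 expressed pairs by A02 gene number; blue, green and black mark homeologs on D02, D03 and other chromosomes, large points the pairs called biased, dotted lines a log2 fold change of 1 in either direction. Biased pairs of both directions are found along the whole stretch, on both sides of the change of partner (dashed).

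Most of the largest differences involved a nearly silent copy. Among pairs with D02, Gh_A02G0222 was at 0, 0 and 0.028 FPKM and Gh_D02G0289 at 19.6, 20.7 and 23.8, a log2 fold change of 5.66 (SE 0.11, limma, adjusted p = 7.33e-08). Gh_A02G0560 was at 0.064, 0.150 and 0, against 14.2, 14.4 and 20.2 for Gh_D02G0622. In the other direction Gh_A02G0237 was at 7.60, 7.68 and 5.82 and Gh_D02G0306 at 0.034, 0.012 and 0.072, a log2 fold change of -4.01 (SE 0.14, limma, adjusted p = 6.17e-07), and Gh_A02G0036 was at 14.1, 15.8 and 16.7 with Gh_D02G0049 listed at 0. These pairs were picked among those whose copies did not overlap. Fold changes are of log2(FPKM + 0.42) and understate the difference where a copy is near 0.

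Among pairs with D03, Gh_A02G1244 had 103, 93.9 and 100.2 FPKM and Gh_D03G0377 had 3.51, 2.91 and 4.26, a log2 fold change of -4.66 (SE 0.14, limma, adjusted p = 5.51e-07). Gh_A02G0955 had 5.50, 5.17 and 4.61 against 0.061, 0.197 and 0.203 for Gh_D03G0803. Gh_A02G1233 had 0.174, 0.284 and 0 against 16.9, 15.1 and 16.0 for Gh_D03G0369, a log2 fold change of 4.87 (SE 0.19, limma, adjusted p = 1.20e-06). Gh_A02G1221 had 0.210, 0.333 and 0.203 against 14.8, 15.5 and 12.6 for Gh_D03G0504. In all 4 pairs 1 copy was expressed in every library, and only Gh_D03G0377 of the lower copies was above FPKM of 1.

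Several of these genes were neighbours, in a stretch singled out after its values were seen. Between Gh_A02G1231 and Gh_A02G1250, 7 pairs with D03 were tested, of which 2 were A-biased, 2 D-biased and 3 neither, where 24% of all pairs tested were biased either way. Within it on A02 the nearly silent Gh_A02G1233 was followed by Gh_A02G1234 (565, 534 and 656 FPKM) and Gh_A02G1235 (631, 618 and 748). At the matching place of D03 lay Gh_D03G0369, the expressed partner of Gh_A02G1233, followed by Gh_D03G0370 and Gh_D03G0371, the most abundant genes of D03. Neither of the latter has a listed partner, and that of Gh_A02G1235 was Gh_D05G2150 (204, 212 and 274 FPKM). Further on, 8 neighbouring D03 genes, Gh_D03G0378 to Gh_D03G0385, were below FPKM of 1 in every library, between Gh_D03G0377 and Gh_D03G0386 (15.6, 14.4 and 15.1). Abundant, silent and unequally expressed genes thus stood side by side.

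Transcription factors, the proteins that bind regulatory DNA and switch genes on or off, were taken from the study's list of factors with unequal homeologs. The study drew up that list from these samples, so that its members are expressed and unequal is not independent evidence. It held 31 genes of the 4 chromosomes in 24 families, with 6 on A02, 6 on A03, 10 on D02 and 9 on D03. All 31 were at FPKM of 1 or more in every library, with means from 1.39 (Gh_A02G1512, AP2/ERF-ERF) to 70.8 and a median of 7.88. The highest was Gh_D03G0374, of the plant-specific homeodomain-leucine zipper family HB-HD-ZIP, at 76.2, 85.3 and 50.7 FPKM. Next on D03 was Gh_D03G0923, a zinc-finger factor of the C2C2-Dof family, at 18.4, 16.2 and 19.3.

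On A03 the highest factors were Gh_A03G2005, of the HB-KNOX family known for its work in shoot meristems, at 47.3, 44.2 and 45.9 FPKM, and Gh_A03G0864, a bHLH factor, at 24.0, 25.2 and 27.4. On D02 they were Gh_D02G1381, of the GAGA-binding BBR-BPC family, at 41.6, 38.9 and 48.5, and Gh_D02G1515, of the SBP family that acts in phase change and flowering, at 19.6, 18.7 and 22.7. On A02 they were Gh_A02G1212, a PLATZ zinc-binding factor, at 18.9, 16.9 and 22.8, and Gh_A02G1249, a zinc-finger homeodomain factor (zf-HD), at 10.02, 9.05 and 11.0. None of these factors fell below FPKM of 5 in any library. Gh_A03G0864, Gh_D02G1381 and Gh_D02G1515 also belong to the study's blue co-expression module, as do Gh_D02G1526, an NF-YC subunit of the CCAAT-binding complex (8.24, 7.63 and 9.02), and Gh_D03G1762, a CPP factor (3.67, 5.20 and 2.70).

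In 8 of the listed pairs the A copy is on A02, and 4 were A-biased and 4 D-biased. Gh_A02G1237 had 5.46, 13.9 and 9.94 FPKM, below its homeolog Gh_D03G0374, with a log2 fold change of 2.86 (SE 0.34, limma, adjusted p = 0.000308). The NAC factor Gh_A02G0941, of a family that takes part in senescence and stress responses, had 8.22, 9.18 and 6.23 FPKM against a mean of 0.468 ± 0.189 for Gh_D03G0824. The PLATZ factor Gh_A02G1212 had a mean of 19.5 ± 2.99 against 4.12 ± 0.679 for Gh_D03G0515, and the GARP-G2-like factor Gh_A02G0227 had 9.85 ± 1.14 against 3.28 ± 0.358 for Gh_D02G0291. Of these 8 pairs 5 had their D copy on D03.

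On each chromosome the gene that varied most between libraries was picked among those with a mean of 10 FPKM or more. That these genes lie above the median gene of that level follows from the choice. Gh_A02G0316 had 24.0, 5.43 and 4.46 FPKM, a coefficient of variation of 97.4%, and stood high in library 1 alone. Its listed homeolog Gh_D02G0380 was also highest in library 1, at 8.00, 2.06 and 1.43 FPKM. Gh_D03G1778 had 31.2, 75.3 and 103 (51.9%), Gh_A03G0533 had 8.83, 14.8 and 6.45 (42.9%) and Gh_D02G1781 had 10.9, 14.0 and 5.65 (41.3%). No library was the odd one in all of them. The median coefficient of variation of genes with a mean of 10 FPKM or more was 8.34% on A02, 8.40% on A03, 8.68% on D02 and 9.03% on D03.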

How the data were processed

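Leaf RNA-seq of 3 libraries of one group was used. For the authors' processing, fastp removed bases under a quality of 25 and reads under 20 bp, HISAT2 aligned the remaining reads to the reference genome of TM-1, and StringTie gave the FPKM of each gene in the annotation from CottonGen; versions are not given in the sources used here. The deposited FPKM values (1 per gene and library; they hold no read counts, so no count test was run; the study lists read totals of similar size for the libraries, which were not used here) were used unchanged, with 0 columns unused. They summed to 941105, 942419 and 1012480 per library, and Spearman correlations between libraries over all genes were 0.981 to 0.987. An exact 0 may be a failed estimate, so genes are described as listed at 0.

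The members and lists were chosen with earlier results of these data known. Windows held 100 consecutive genes, the last of each chromosome the remainder. Levels are means of log2(FPKM + 1). In a list of the study, all 150 genes placed on A02 and 143 on A03 were in the order of their numbers. The last placed genes in that list are number 1723 on A02 and 1919 on A03, and the first genes of assigned scaffolds are 1757 and 1953. Scaffold genes thus begin between these numbers. Where such genes begin on D02 and D03 was not found. Homeologs came from the identifier columns of the study's lists (reciprocal BLAST hits), complete only for the first 418 numbers of A02; the remainder is of expressed pairs. They were tested on log2(FPKM + 0.42), the D copy against the A copy, by limma 3.58.1 under R 4.3.3, if either copy had a mean FPKM of 1 or above. The pseudocount had been fitted in earlier work to the study's fold changes, which ties the number of calls in part to theirs. On simulated pairs the fit recovered 195 of 200 with a planted log2 fold change of 2 and called 0 others of 1999 pairs. The others were given no difference, and the noise had 1 SD for all pairs and was independent between copies. The error rate of the calls on real pairs is not given by this. A and D values of a pair come from the same library, and their deviations correlated (r = 0.547; 0.185, 0.555 and 0.618 by library). Other tests were exact over libraries, two-sided, in Python 3.11.15 with scipy 1.17.1 and pandas 2.3.3; figures used matplotlib 3.10.9.

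Genes were named by rule: the 3 highest per chromosome, the highest of each extreme window, the ends and neighbours of the longest silent runs, the 2 largest non-overlapping biased pairs per direction and partner, the highest listed transcription factors and those of the blue module, the most variable genes, and the neighbours of the change of partner. Pairs of abundant genes, pairs of listed factors and the stretch around Gh_A02G1233 were added after the values were seen. Alternatives covered the expression limit, pseudocount, filters, rescaling, window size and start, block, trend, centring and leaving out each library. Of 8319 identifiers, 0 matched the RefSeq gene table, so gene names, leaf marker genes and sequences were not used here.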

Additional observations from a re-analysis of the deposited data

Results flagged for a closer look

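The level gaps of the 2 chromosome numbers pointed in opposite ways in every library. On log2(FPKM + 1) A02 minus D02 was -0.04 in libraries 1 and 3 and -0.03 in library 2, whereas A03 minus D03 was 0.21 in each. Both lay outside the range of the other 11 chromosome numbers, -0.02 to 0.15. The difference of the gaps was 0.247 ± 0.010 (SD, n = 3), with an exact sign-flip p of 0.25, the smallest that 3 libraries allow. A02 carries partners of both D chromosomes, so the contrast does not hold homeologs against homeologs. Single outlying libraries were not looked for, because the group has 3 samples.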

How the results depend on the processing

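The share and level gaps between A02 plus A03 and D02 plus D03 kept their direction in the 7 alternatives each, at 2.17 to 2.41 points and 0.03 to 0.17, and at 2.25 to 2.41 and 0.0955 to 0.0963 with each library left out. The lowest level gap was that of genes with mean FPKM of 1 or more, and the highest used a pseudocount of 0.1. Runs of 10 or more silent genes depended on the limit. On A02 plus A03 there were 3, but 0 below FPKM of 0.1, 5 by a mean below 1, and 4 to 5 with a library left out. On D02 plus D03 there were 6, but 0 below 0.1, 3 below 0.5, and 6 with any library left out. The range of window shares, 45.3 points, was 50 in windows of 50 genes, 27 in windows of 200, 42 in windows shifted by 50, and 45 to 45.5 with a library left out. Where only pairs reaching mean FPKM of 10 were tested, 31 A-biased and 41 D-biased A02 pairs were called, fewer pairs being tested. The replicate block gave 84 and 94. It changed the class of none of the pairs named for the largest differences, but their adjusted p-values rose. For Gh_A02G0222 the limma adjusted p was 1.45e-05 with the block and 7.33e-08 without it. This does not cover the other named pairs. Leaving out a library gave 83 to 86 and 87 to 92. The contrasts added after the data had been seen kept their direction, those of A02 sides and of D02 and D03 windows in 7 alternatives each and those of genes with and without a listed homeolog in 5 each (24.1 to 29.9 points on A02, 26.3 to 30.5 on D02). The reads behind single FPKM values were not counted here, which limits statements on genes near 0, and with 3 libraries no permutation test could pass 0.05.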
